A study of Mus musculus with 12 samples.

Results

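A set of 40 interferon-stimulated genes was followed in astrocytes sorted from the mouse cortex: genes that cells switch on in response to type I or type II interferon, together with the sensors and transcription factors that govern them. They were taken by symbol from a list drawn up with earlier results of these data known, and all 40 were found among the 15089 genes of the deposited table. The cortices of 12 mice at postnatal day 16 were dissociated and the cells cleared of debris and dead cells, and pulled out with magnetic beads coated with an antibody to ACSA-2, which astrocytes carry on their surface. Each mouse gave 1 library of total RNA. The mice had 3 genotypes with 4 libraries each: cKO;S/+ (Nmnat2f/f; NexCre+/-; Sarm1+/-, replicates 8, 9, 10 and 14), cKO;S/S (Nmnat2f/f; NexCre+/-; Sarm1-/-, replicates 15, 16, 17 and 18) and ctrl-2 (Nmnat2f/+; NexCre+/-; Sarm1+/-, replicates 4, 5, 6 and 7). Every group thus carried NexCre and at least 1 altered allele of Nmnat2 and of Sarm1, although the study's methods also allow ctrl-2 mice without a Sarm1 null allele. NexCre acts in glutamatergic neurons and not in astrocytes, so the gene for the NAD-synthesizing enzyme NMNAT2 was deleted in other cells than those that were sorted. SARM1 is an enzyme that breaks NAD down. Its null allele came from knockout mice and was not confined to neurons, so the sorted cells of cKO;S/+ and cKO;S/S carried it too. The comparisons ask how the loss of neuronal NMNAT2 bears on astrocytes and how far this depends on SARM1. SARM1 loss in neurons and in the sorted cells cannot be told apart by this design.

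Type I interferons signal through the receptor chains IFNAR1 and IFNAR2 and the kinases JAK1 and TYK2 to a complex that holds STAT2 and IRF9 and binds the interferon-stimulated response element (ISRE). Type II interferon signals through IFNGR1 and IFNGR2, JAK1 and JAK2 to the gamma-activated site (GAS) of its target genes. In the brain both astrocytes and microglia express these receptors, and the genes so induced sense viral nucleic acids, block viral replication, tag proteins with ISG15 and aid antigen presentation.

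The libraries of cKO;S/+ did not behave alike, and cKO;S/+ replicate 14 stood apart from the other three. Replicates 8, 9, 10 and 14 of cKO;S/+ exceeded every ctrl-2 library in 36, 33, 40 and 6 of the 40 genes, and replicates 15, 16, 17 and 18 of cKO;S/S did so in 16, 8, 26 and 6. The shares of all genes that did so were 31.8%, 31.1%, 29.9% and 19.6% in cKO;S/+ and 30.2%, 26.1%, 27.7% and 19.1% in cKO;S/S. The median member lay 0.98, 0.89, 1.48 and -0.01 above the ctrl-2 mean on the log2 scale in these cKO;S/+ libraries, and 0.15, 0.07, 0.35 and 0.05 in cKO;S/S replicates 15, 16, 17 and 18. Replicate 10 was the highest of all 12 libraries in 37 genes and replicate 8 in the other 3. In replicate 14, 28 genes were within the range of the ctrl-2 libraries and 6 below it, where 59.8% of all genes were within it. Results are therefore given with and without replicate 14.

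In the cells sorted from cKO;S/+ cortex 22 of the 40 genes rose against ctrl-2 and 0 fell. The test was edgeR's quasi-likelihood test with an adjusted p under 0.05 over all genes (hereafter "called"). By it 5.9% of all 15089 genes were called higher and 1.38% lower. The log2 fold change, on which a value of 1 is a 2-fold difference, was above 0 for all 40, with a median of 0.91 and a range from 0.09 to 2.32, against a median of -0.002 over all genes. The largest values among the called genes belonged to Usp18 (2.20), Ifit1 (2.09), Isg15 (2.02), Irf7 (1.96) and Ifit3 (1.88), which encode an ISG15 protease, an RNA-binding antiviral protein, the ubiquitin-like modifier itself, a transcription factor of the interferon response and a partner of IFIT1. At an unadjusted p under 0.05, 33 of the 40 were higher and 0 lower, against 14.3% and 9.25% of all genes. Groups did not overlap, with all 4 cKO;S/+ libraries above all 4 ctrl-2 libraries, for 4 members (Adar, Usp18, Dtx3l and Ifi35), which is 10% of the members against 6.53% of all genes.

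In the cells sorted from cKO;S/S cortex 0 of the 40 were called against ctrl-2, as were 0% of all genes in either direction. Unadjusted, 2 members were higher (Irf1 and Xaf1) and 0 lower at p under 0.05, against 6.79% and 4.87% of all genes, and DESeq2, limma-voom and edgeR's likelihood ratio test likewise called 0 members, where they called 0.205%, 0% and 0.219% of all genes higher and 0.179%, 0% and 0.0994% lower. The median log2 fold change of the members was 0.16, with 31 above 0. Between the mutants, cKO;S/+ over cKO;S/S, all 40 log2 fold changes were above 0 (median 0.74), yet the quasi-likelihood test called 0 members higher or lower, as it did 0% of all genes. Unadjusted, 32 members were higher and 0 lower at p under 0.05, against 9.17% and 9.11% of all genes. DESeq2 called 20 members higher (2.62% of all genes) and edgeR's likelihood ratio test 17 (2.01%), while limma-voom called 0 (0%). The groups did not overlap for 1 member (Bst2), against 2.66% of all genes. The comparisons share libraries, so their values are set side by side and not correlated.

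**Figure D1:**
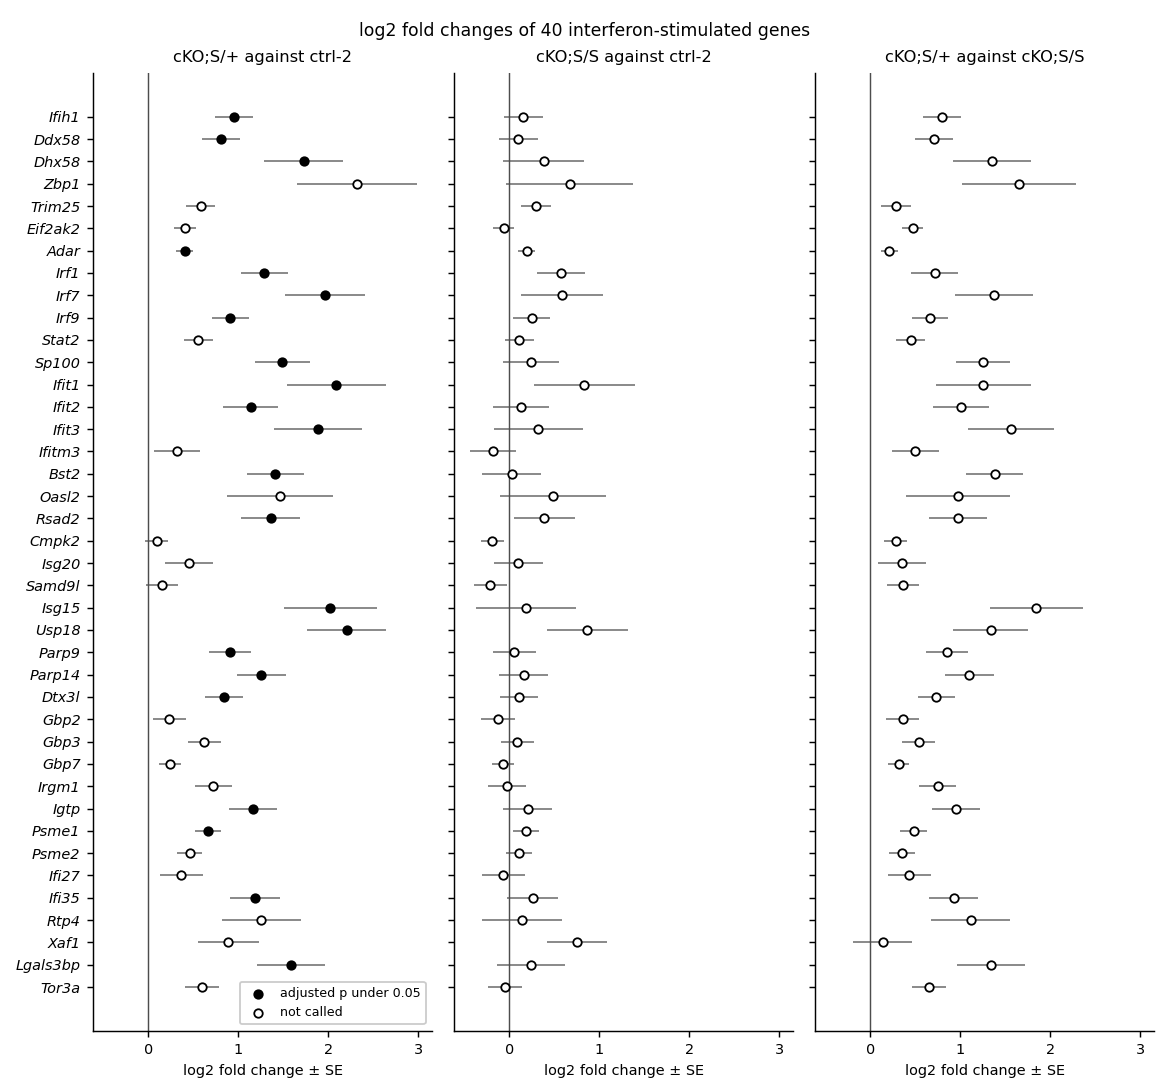
log2 fold changes of the 40 genes with their standard errors for cKO;S/+ over ctrl-2 (left), cKO;S/S over ctrl-2 (middle) and cKO;S/+ over cKO;S/S (right), filled where the adjusted p was under 0.05. In the left panel 22 points are filled and all 40 lie above 0; in the middle panel 0 are filled and 31 lie above 0; in the right panel 0 are filled and all 40 lie above 0.

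Without replicate 14, 33 members were called higher and 0 lower in cKO;S/+ against ctrl-2, where 10.6% of all genes were higher and 6.46% lower. Among them were all 22 called with it, the 7 genes not called being Ifitm3, Cmpk2, Isg20, Samd9l, Gbp2, Gbp7 and Xaf1. The other 3 cKO;S/+ libraries lay above all ctrl-2 libraries in 33 of 40 members, against 16.2% of all genes. Against cKO;S/S, leaving out replicate 14 gave 31 members higher and 0 lower, with 5.73% and 5.38% of all genes. Replicate 14 was singled out by the values of these same 40 genes, whereas the shares of all genes were not chosen so. The higher member counts without it therefore follow in part from that choice and are no separate support. With 1 library left out at a time, 0 members were called in cKO;S/+ against ctrl-2 without cKO;S/+ replicate 8 or 10 or ctrl-2 replicate 4, 6 or 7, and 10 without cKO;S/+ replicate 9. The calls over all genes fell away in the same fits, with 2.87% called higher without cKO;S/+ replicate 9, 0.219% without cKO;S/+ replicate 10 and 0% in each of the other 4. In these 6 fits 30 to 35 members were still higher at an unadjusted p under 0.05, against 1556 to 2030 of 15089 genes. Log2 fold changes were above 0 for 38 to 40 members.

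**Figure D2:**
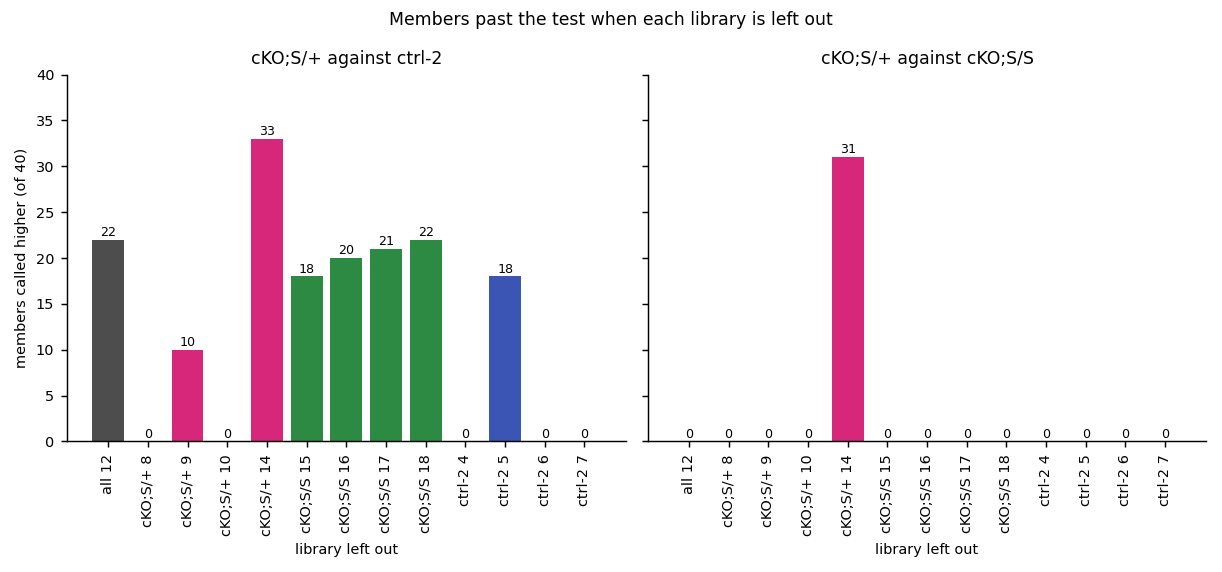
Number of the 40 genes called higher by edgeR's quasi-likelihood test when each library is left out, in cKO;S/+ against ctrl-2 (left) and cKO;S/+ against cKO;S/S (right), with bars coloured by the genotype of the library left out. The count is 22 and 0 with all 12 libraries, and 33 and 31 without cKO;S/+ replicate 14.

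Total counts ran from 16506627 to 22159404 per library. Markers of astrocytes summed to 26319 to 33038 CPM (counts scaled to the size of the library) in cKO;S/+, 19911 to 32245 in cKO;S/S and 31433 to 35212 in ctrl-2. They were led by the glutamate transporter gene Slc1a2. In each comparison 0 of 15 were called, where at most 5.9% of all genes were called higher and 1.38% lower. Nmnat2, the gene deleted in neurons, had 20.9, 20.7, 20.3 and 29.4 CPM in cKO;S/+ replicates 8, 9, 10 and 14, against 42.6, 19.9, 31.2 and 26.5 in cKO;S/S and 38.7, 35.6, 37.3 and 42.4 in ctrl-2, so that every cKO;S/+ library, replicate 14 included, lay below every ctrl-2 library, and the gene passed the test as lower (log2 difference -0.76, SE 0.19, edgeR adjusted p = 0.0341). The X-inactivation transcript Xist exceeded 1000 CPM in cKO;S/+ replicates 8, 9 and 10, cKO;S/S replicates 16 and 17 and ctrl-2 replicate 7, and stayed under 1 CPM in the others. With log2 CPM of Xist as a covariate 0 members were called in cKO;S/+ against ctrl-2 (40 log2 fold changes above 0, median 0.71), as were 0% of all genes higher and 0.0133% lower. Without replicate 14 as well, a fit added after the data had been seen, 29 members and 4.92% of all genes were called higher. Replicate 14 was the only cKO;S/+ library low in Xist, and replicate 7 the only ctrl-2 library high in it. Without replicate 14, Xist level and genotype nearly coincide between these groups, so that fit can hardly separate them.

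Transcripts of microglia moved with the interferon-stimulated genes. The sum of 20 general microglia and macrophage markers was 5630, 4406, 5879 and 2837 CPM in cKO;S/+, in the order of the replicate numbers, against 2757, 2535, 3532 and 2157 CPM in cKO;S/S and 2272, 3094, 1762 and 1544 CPM in ctrl-2. All 20 were detected in every library. The most abundant of them was Ctss, a lysosomal protease gene of microglia. In cKO;S/+ against ctrl-2 18 of the 20 rose, where 5.9% of all genes did, with a median log2 fold change of 1.11. Of the 40 members 18 had a larger log2 fold change than that median and 22 a smaller one. Homeostatic microglia markers, such as Csf1r, summed to 6455 to 9764 CPM in cKO;S/+, 5196 to 6502 in cKO;S/S and 3947 to 7113 in ctrl-2, and 6 of 13 rose. Of 8 markers of border-associated macrophages 0 rose and 1 fell, where 5.9% of all genes rose and 1.38% fell. Of these 8, 7 had log2 fold changes below 0, with a median of -1.08. At an unadjusted p under 0.05, 6 were lower and 1 higher, against 9.25% and 14.3% of all genes. Oligodendrocyte markers summed to 4023, 3633, 4382 and 7361 CPM in cKO;S/+, 7353 to 8971 in cKO;S/S and 3717 to 12079 in ctrl-2. In cKO;S/+ against ctrl-2 all 14 had log2 fold changes below 0 and 0 were called, where 1.38% of all genes were called lower. In bulk RNA of a sorted population more cells of a type and more RNA per cell cannot be told apart. Which cells of the sort held the transcripts of the 40 members was not tested. With the mean log2 CPM of the general markers as a covariate, 0 members were called in cKO;S/+ against ctrl-2, as were 0% of all genes in either direction, while 24 of 40 log2 fold changes were above 0 and their median was 0.01. With the same covariate and without replicate 14, a fit likewise added, 0 members and 0.00663% of all genes were called higher. In it 35 log2 fold changes were above 0 and the median was 0.43. At an unadjusted p under 0.05, 8 members were higher, against 568 of 15089 genes. Without replicate 14 the marker sums of cKO;S/+ (4406 to 5879 CPM) and ctrl-2 (1544 to 3094 CPM) did not overlap. That fit can therefore hardly separate marker level from genotype. With all 12 libraries, the covariate left 11 of 40 log2 fold changes above 0 in cKO;S/S against ctrl-2, with a median of -0.14.

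**Figure D3:**
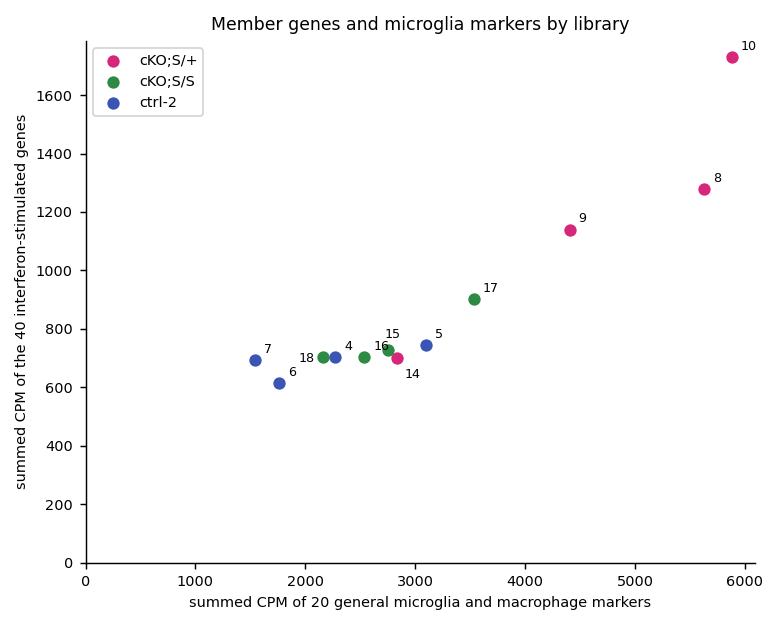
Summed CPM of the 40 interferon-stimulated genes against the summed CPM of 20 general microglia and macrophage markers in the 12 libraries, with replicate numbers beside the points. Replicates 8, 9 and 10 of cKO;S/+ lie at 1140 to 1730 CPM of member genes and at 4406 CPM of markers or more, and the other 9 libraries lie at 613 to 901 and at 3532 or less.

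The genes' promoters are shown because most of the members are known targets of the ISRE-binding complex. RefSeq promoter windows (GRCm38.p6, 250 bases before to 50 bases after each start site) were at hand for 32 of the 40 members, 42 windows in all. The letters GAAANNGAA, a core of the ISRE, were found on either strand in 19 of the 42 windows (45.24%), against 8.56% of 32851 windows of all genes, and TTCNNNGAA, the letters of the GAS, in 10 (23.81%), against 8.3%. By gene, 19 of 32 members (59.38%) held the ISRE core, against 9.76% of all genes with a window. It stood in 10 of the 18 members with a window that rose in cKO;S/+ and in 9 of the 14 that were not called. Such a match describes the letters only. In the stretches that follow, written 5′ to 3′ along the gene, capitals mark the ISRE core, read forward or as its reverse complement, and in Irf1 the GAS:
Isg15, chr4:156200864-156200908, minus strand: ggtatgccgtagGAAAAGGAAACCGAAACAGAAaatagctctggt
Ifit1, chr19:34640768-34640825, plus strand: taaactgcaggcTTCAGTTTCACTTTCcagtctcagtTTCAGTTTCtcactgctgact
Ifit3, chr19:34583362-34583447, plus strand: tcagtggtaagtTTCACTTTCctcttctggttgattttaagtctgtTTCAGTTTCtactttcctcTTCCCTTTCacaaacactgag
Bst2, chr8:71537576-71537614, minus strand: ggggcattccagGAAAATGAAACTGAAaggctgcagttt
Igtp, chr11:58199510-58199542, plus strand: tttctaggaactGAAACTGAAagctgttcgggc
Gbp2, chr3:142620593-142620625, plus strand: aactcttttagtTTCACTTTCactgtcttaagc
Irf1, chr11:53769912-53769944, plus strand: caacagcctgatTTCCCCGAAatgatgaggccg
Isg15 held 3 cores end to end, each sharing its last letters with the next, between -78 and -58 bases from its start site. Ifit1 and Ifit3 held 3 each and Bst2 held 2, the first of which overlaps a GAS match. Igtp and Gbp2, both GTPase genes, had 1 core each at -34 and -58. Igtp, which was called in cKO;S/+, also held a GAS match at -45, not marked in its stretch. Gbp2, which was not called, held no GAS match.

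**Figure D4:**
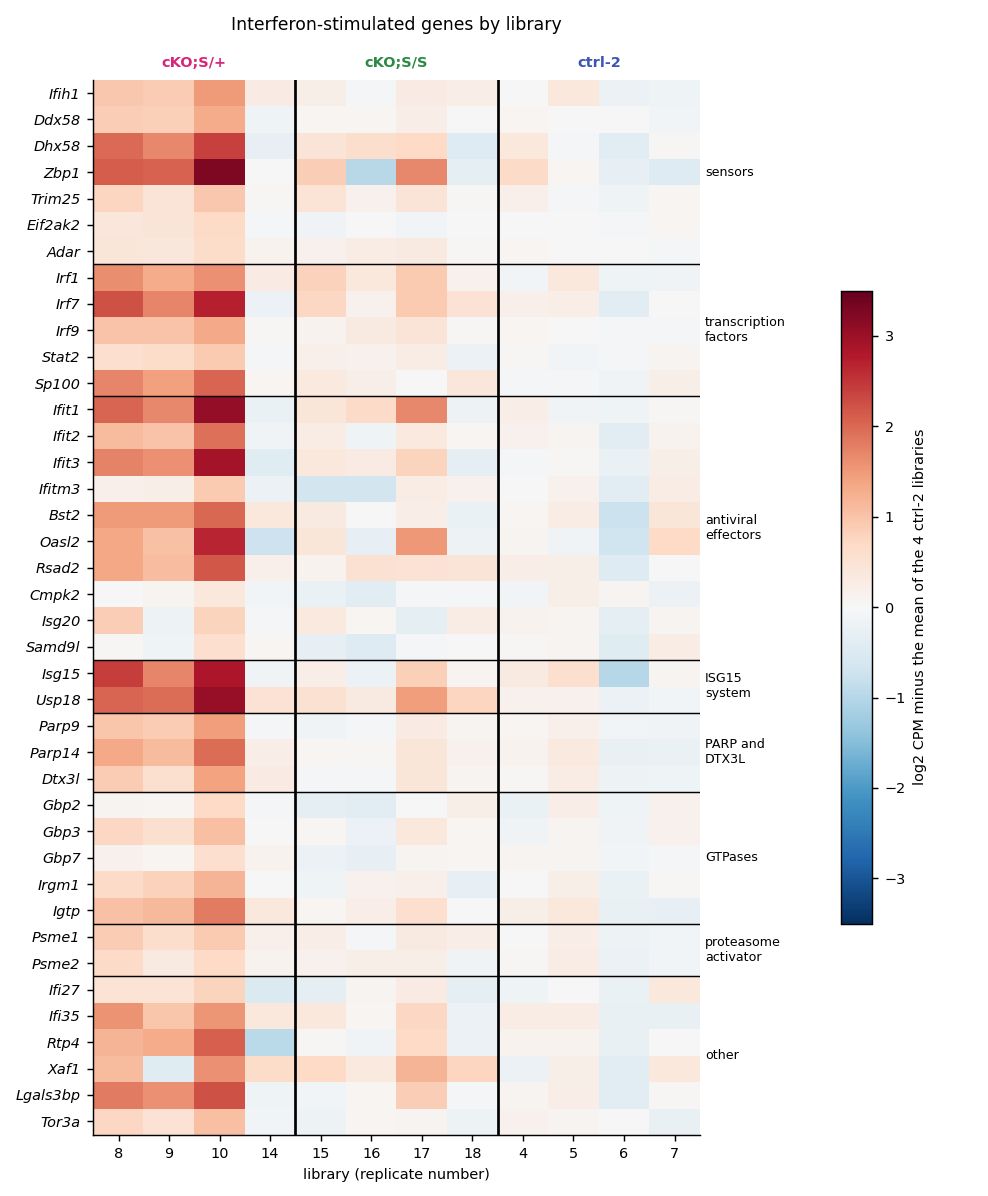
Log2 CPM of each of the 40 genes in each library, minus the mean of the 4 ctrl-2 libraries, with genes grouped by role and libraries by genotype. Replicates 8, 9 and 10 of cKO;S/+ are red across nearly every row (medians 0.98, 0.89 and 1.48), replicate 14 is close to white (median -0.01), and replicate 17 (median 0.35) has the highest median of cKO;S/S.

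Of the 7 genes grouped as nucleic acid sensors, 4 rose in cKO;S/+ against ctrl-2: Ifih1, Ddx58, Dhx58 and Adar. Of the 7, Adar and Trim25 do not encode sensors themselves. For this role and those that follow, 5.9% of all genes were called higher in the same comparison and 1.38% lower. Values of a group are given in the order of its replicate numbers (8, 9, 10 and 14, then 15 to 18, then 4 to 7), and tests in parentheses are of cKO;S/+ against ctrl-2 unless others are named. Ifih1 (chr2:62595793-62646255, minus strand) encodes MDA5, a sensor of long double-stranded RNA. It had 22.2, 21.6, 32.7 and 14.02 CPM in cKO;S/+, against 13.4, 11.02, 14.2 and 13.7 in cKO;S/S and 11.6, 14.9, 9.97 and 10.3 in ctrl-2. Of cKO;S/+, replicates 8, 9 and 10 lay above every ctrl-2 library, and replicate 14 within the ctrl-2 range (log2 fold change 0.95, SE 0.21, edgeR adjusted p = 0.0240). Adar (chr3:89715022-89753455, plus strand) encodes the enzyme that edits adenosine in double-stranded RNA to inosine and so keeps self RNA from the sensors. It had 95.8, 92.4, 109.8 and 76.4 CPM in cKO;S/+, against 78.6, 84.6, 87.3 and 73.5 in cKO;S/S and 73.7, 69.6, 71.2 and 68.9 in ctrl-2. All 4 cKO;S/+ libraries lay above all 4 ctrl-2 libraries, with the smallest log2 fold change of any called member (log2 fold change 0.40, SE 0.09, edgeR adjusted p = 0.0269). Its exons overlap those of Chrnb2 on the other strand over 22.8% of their length, and the strand setting of the counting is not given in the sources used here, so reads of these genes may be mixed.

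The other genes of this group differed widely in level and fold change. For Ddx58, which encodes RIG-I, the log2 difference from ctrl-2 was 0.81 with cKO;S/+ and, with cKO;S/S, 0.10, with 16.6 to 45.1 CPM in cKO;S/+ and 17.2 to 19.3 in ctrl-2. Dhx58, for the related protein LGP2, had 1.73 (2.04 to 13.7 CPM in cKO;S/+, 1.90 to 3.34 in ctrl-2). Zbp1, a sensor of Z-form nucleic acid that can trigger cell death, had the largest log2 fold change of all members, 2.32 with an SE of 0.67, on 0.773 to 8.28 CPM in cKO;S/+ and 0.534 to 1.29 in ctrl-2, and was not called (edgeR adjusted p = 0.0530). It was called without replicate 14. Trim25, a ubiquitin ligase that activates RIG-I, and Eif2ak2, the kinase PKR that halts translation, were not called with 0.58 and 0.41 and edgeR adjusted p = 0.0531 and 0.0560.

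Among the 5 transcription factors and nuclear regulators, 4 rose in cKO;S/+ against ctrl-2 and Stat2 did not pass the test. Irf1 (chr11:53770014-53778374, plus strand), whose GAS is printed earlier, drives genes of the type II response. It had 66.1, 52.4, 64.7 and 25.8 CPM in cKO;S/+, against 36.96, 27.3, 39.6 and 23.5 in cKO;S/S and 19.7, 27.5, 19.1 and 19.3 in ctrl-2. All cKO;S/+ libraries but replicate 14 were above all ctrl-2 libraries, and replicate 14 lay under ctrl-2 replicate 5 (log2 fold change 1.29, SE 0.26, edgeR adjusted p = 0.0210). In cKO;S/S its log2 fold change was 0.57 (SE 0.26), with an edgeR adjusted p = 0.424 and an unadjusted p under 0.05, and replicates 15 and 17 exceeded every ctrl-2 library. Sp100 (chr1:85650050-85709448, plus strand) encodes a scaffold of nuclear bodies that restrict viral genomes. It had 19.2, 15.8, 24.4 and 6.13 CPM in cKO;S/+, against 7.38, 6.66, 5.86 and 7.63 in cKO;S/S and 5.63, 5.63, 5.32 and 6.75 in ctrl-2. The cKO;S/S and ctrl-2 libraries were alike within 5.32 to 7.63 CPM, as was cKO;S/+ replicate 14 (log2 fold change 1.49, SE 0.30, edgeR adjusted p = 0.0210).

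Irf7 (chr7:141263183-141266424, minus strand) encodes the factor that amplifies type I interferon production. It had 16.3, 11.3, 22.8 and 2.93 CPM in cKO;S/+, against 5.61, 3.73, 6.45 and 4.81 in cKO;S/S and 3.86, 3.96, 2.52 and 3.35 in ctrl-2. The highest cKO;S/+ library stood far from replicate 14, which was below 3 ctrl-2 libraries (log2 fold change 1.96, SE 0.44, edgeR adjusted p = 0.0247), and 3 of 4 cKO;S/S libraries lay above all ctrl-2 libraries. Stat2 (chr10:128270576-128292849, plus strand), a subunit of the ISRE-binding complex, had 48.99, 50.99, 61.6 and 31.7 CPM in cKO;S/+, against 37.2, 36.3, 39.6 and 28.7 in cKO;S/S and 34.1, 30.5, 31.7 and 35.2 in ctrl-2. Its replicate 14 lay among the ctrl-2 libraries and the other 3 above them, and it was not called (log2 fold change 0.56, SE 0.16, edgeR adjusted p = 0.0553), but was called without replicate 14 (log2 fold change 0.71, SE 0.11, edgeR adjusted p = 0.00156). Irf9, which gives that complex its DNA contact, rose with a log2 fold change of 0.91, with 44.6, 44.4, 55.4 and 22.6 CPM in cKO;S/+ against 21.3 to 23.4 in ctrl-2. Irf9 therefore varied little among ctrl-2 libraries and separated from 3 of 4 cKO;S/+ libraries by a wide gap.

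**Figure D5:**
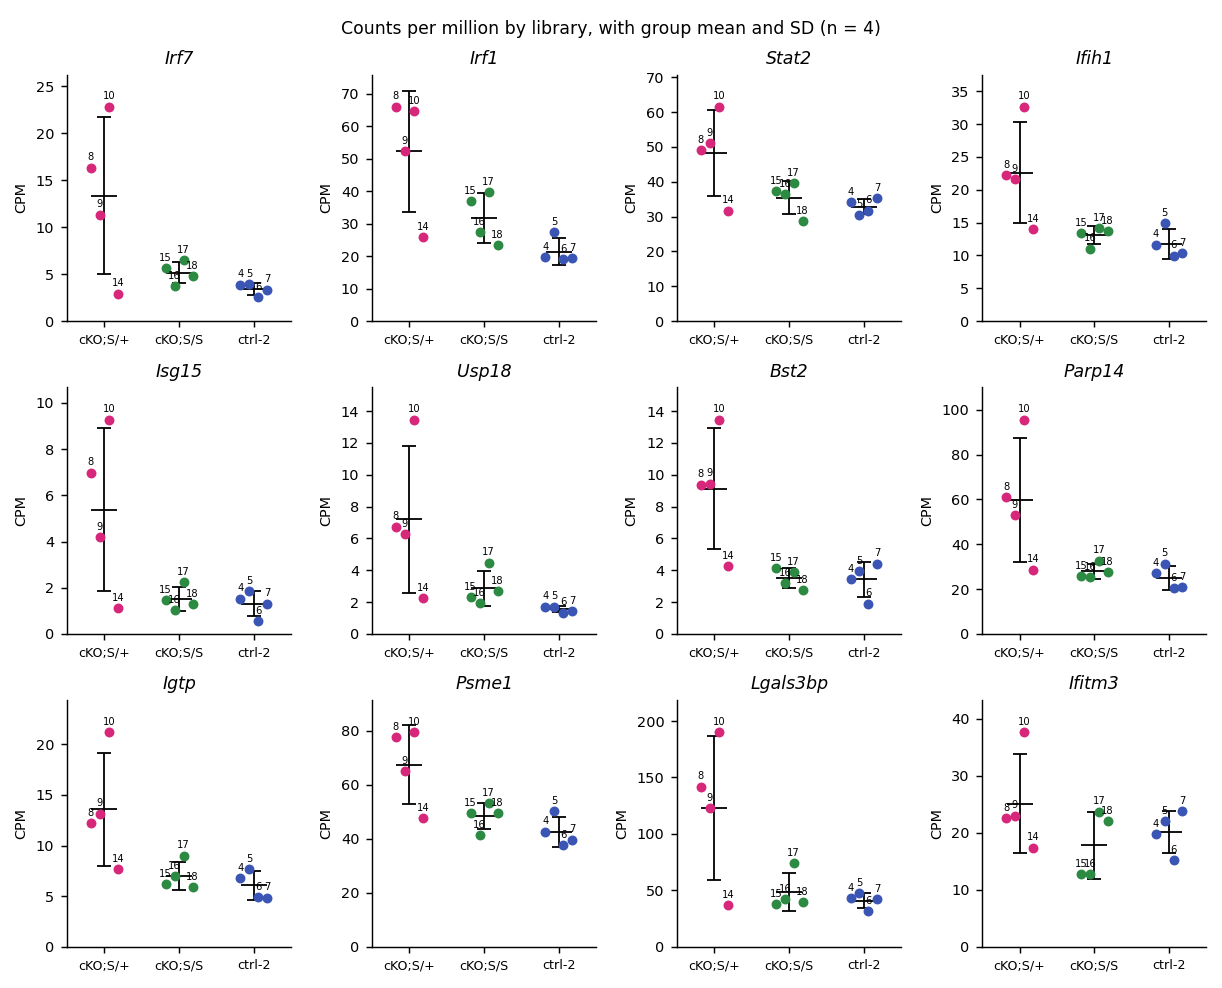
CPM of 12 of the genes in each library, labelled by replicate number, for cKO;S/+, cKO;S/S and ctrl-2, with the group mean and SD (n = 4) as a bar and whiskers and every axis starting at 0. In most panels replicates 8, 9 and 10 of cKO;S/+ stand above the remaining libraries and replicate 14 among them; Ifitm3 shows overlapping groups, with replicate 10 at 37.6 CPM.

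Of the 10 antiviral effectors 5 rose in cKO;S/+ against ctrl-2, and the other 5 included genes with barely any difference. Bst2 (chr8:71534262-71537437, minus strand) encodes tetherin, a membrane protein that holds budding virus on the cell. It had 9.38, 9.44, 13.5 and 4.25 CPM in cKO;S/+, against 4.11, 3.22, 3.89 and 2.76 in cKO;S/S and 3.44, 3.96, 1.90 and 4.42 in ctrl-2. Against ctrl-2 replicate 14 overlapped (log2 fold change 1.41, SE 0.32, edgeR adjusted p = 0.0240), and against cKO;S/S all 4 cKO;S/+ libraries were higher, the only such member, without a call (log2 fold change 1.38, SE 0.32, edgeR adjusted p = 0.152). Rsad2 (chr12:26442743-26456452, minus strand) encodes viperin, a radical SAM enzyme that makes a chain-terminating nucleotide. It had 9.77, 8.13, 17.2 and 4.25 CPM in cKO;S/+, against 4.11, 5.45, 5.43 and 5.16 in cKO;S/S and 4.44, 4.39, 2.74 and 3.74 in ctrl-2. Replicates 8, 9 and 10 lay above all other libraries and replicate 14 within the ctrl-2 range (log2 fold change 1.36, SE 0.33, edgeR adjusted p = 0.0288).

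The neighbouring gene Cmpk2, on chromosome 12 and coding for a mitochondrial nucleotide kinase, had the smallest log2 fold change of all members (0.09), with 12.7 to 17.5 CPM in cKO;S/+ and 11.8 to 15.6 in ctrl-2. Ifitm3 (chr7:141009590-141010744, minus strand) encodes a membrane protein that blocks viral fusion and, per kilobase, was second in level among the members in ctrl-2. It had 22.5, 23.01, 37.6 and 17.4 CPM in cKO;S/+, against 12.8, 12.7, 23.7 and 22.01 in cKO;S/S and 19.7, 22.1, 15.2 and 23.7 in ctrl-2. Only replicate 10 exceeded all ctrl-2 libraries, and the gene was not called (log2 fold change 0.32, SE 0.26, edgeR adjusted p = 0.481).

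The 3 IFIT genes, which encode proteins that bind foreign RNA, lie together on chromosome 19 and all rose. Ifit1 (10.1, 7.78, 20.5 and 1.99 CPM in cKO;S/+, 2.13 to 2.77 in ctrl-2) had a log2 fold change of 2.09, Ifit3 (24.5, 22.3, 56.3 and 5.46 CPM, against 6.27 to 8.45) 1.88 and Ifit2 (34.5, 32.3, 61.3 and 14.8 CPM, against 12.4 to 17.7) 1.14. In each, replicate 10 was well above replicates 8 and 9, and replicate 14 was within or below the ctrl-2 range. Ifit3 has a near-identical copy, Ifit3b, so their reads may be shared. In cKO;S/S replicate 17 had 7.83 CPM of Ifit1, against 2.05 to 3.79 in the other cKO;S/S libraries. Oasl2, of the oligoadenylate synthetase family, varied from 4.75 to 51.2 CPM in cKO;S/+, from 6.49 to 22.9 in cKO;S/S and 4.87 to 12.96 in ctrl-2, and was not called with a log2 fold change of 1.46 (SE 0.59). Isg20, an exonuclease gene, and Samd9l, for a restriction factor, had log2 fold changes of 0.45 and 0.15 and were not called.

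Both genes of the ISG15 system rose in cKO;S/+ against ctrl-2. Isg15 (chr4:156199424-156200818, minus strand), whose 3 ISRE cores are printed earlier, encodes the modifier that is attached to newly made proteins. It had 6.98, 4.18, 9.28 and 1.10 CPM in cKO;S/+, against 1.45, 1.03, 2.24 and 1.29 in cKO;S/S and 1.53, 1.86, 0.560 and 1.31 in ctrl-2. Replicate 14 lay within the ctrl-2 range, as did 3 of the 4 cKO;S/S libraries (log2 fold change 2.02, SE 0.52, edgeR adjusted p = 0.0356). Usp18 (chr6:121245906-121270917, plus strand) encodes the protease that removes ISG15 and that also restrains the type I receptor. It had 6.74, 6.30, 13.5 and 2.26 CPM in cKO;S/+, against 2.29, 1.95, 4.47 and 2.7 in cKO;S/S and 1.72, 1.72, 1.34 and 1.46 in ctrl-2. All 4 cKO;S/+ libraries and, to a lesser extent, all 4 cKO;S/S libraries lay above all 4 ctrl-2 libraries (log2 fold change 2.20, SE 0.44, edgeR adjusted p = 0.0204). The difference of cKO;S/S from ctrl-2 was not called (log2 fold change 0.87, SE 0.45, edgeR adjusted p = 0.469). Usp18 was the only member whose cKO;S/S and ctrl-2 libraries did not overlap (1 of 40, where 2.62% of all genes were higher without overlap).

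The 3 genes of ADP-ribosylation, which lie close together on chromosome 16, all rose in cKO;S/+ against ctrl-2. Parp14 (chr16:35832878-35871382, minus strand) encodes a mono-ADP-ribosyltransferase, an enzyme that uses NAD as its substrate. It had 61.2, 53.1, 95.7 and 28.6 CPM in cKO;S/+, against 25.8, 25.4, 32.8 and 27.5 in cKO;S/S and 27.00, 31.4, 20.5 and 20.9 in ctrl-2. Replicates 8, 9 and 10 were above every other library and replicate 14 within the ctrl-2 range (log2 fold change 1.26, SE 0.28, edgeR adjusted p = 0.0231). Dtx3l (chr16:35926515-35939027, minus strand) encodes a ubiquitin ligase that works in a complex with PARP9. It had 41.4, 33.3, 60.03 and 27.5 CPM in cKO;S/+, against 21.9, 21.7, 29.99 and 24.2 in cKO;S/S and 23.2, 27.2, 19.9 and 20.3 in ctrl-2. Its cKO;S/+ and ctrl-2 libraries did not overlap, by a narrow margin between replicate 14 and ctrl-2 replicate 5 (log2 fold change 0.84, SE 0.21, edgeR adjusted p = 0.0308). Parp9, at 28.1, 26.5, 39.9 and 13.6 CPM in cKO;S/+ and 13.2 to 16.2 in ctrl-2, had a log2 fold change of 0.91. Its exons overlap those of Dtx3l on the other strand over 10.3% of their length, so the pair may share reads.

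Of the 5 interferon-inducible GTPases, which act on the vacuoles of intracellular pathogens, Igtp alone rose. Igtp (chr11:58199556-58207592, plus strand) encodes IRGM3. It had 12.3, 13.2, 21.2 and 7.67 CPM in cKO;S/+, against 6.22, 6.95, 9.003 and 5.87 in cKO;S/S and 6.82, 7.68, 4.93 and 4.85 in ctrl-2. Replicate 14 reached the level of ctrl-2 replicate 5, and replicates 8, 9 and 10 exceeded it (log2 fold change 1.16, SE 0.27, edgeR adjusted p = 0.0262). Igtp shares 8.0% of its exon length with Irgm2 on the same strand. Irgm1 (chr11:48865249-48871346, minus strand) encodes a regulator of the other immunity-related GTPases. It had 21.3, 23.8, 30.8 and 13.2 CPM in cKO;S/+, against 12.1, 14.9, 15.2 and 10.9 in cKO;S/S and 13.4, 15.4, 11.4 and 13.9 in ctrl-2. The pattern was the same, with a smaller fold change that was not called (log2 fold change 0.72, SE 0.21, edgeR adjusted p = 0.0530). It was called without replicate 14 (log2 fold change 0.90, SE 0.15, edgeR adjusted p = 0.00217). The guanylate-binding proteins of chromosome 3, whose members resemble each other in sequence, gave log2 fold changes of 0.62 for Gbp3, 0.24 for Gbp7 and 0.23 for Gbp2 and were not called. Gbp2 had 19.5, 19.2, 29.8 and 17.7 CPM in cKO;S/+ and 15.5 to 21.5 in ctrl-2, so that only replicate 10 exceeded the ctrl-2 libraries.

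Psme1 and Psme2 encode the subunits of the PA28 proteasome activator, which widens the range of peptides for antigen presentation. Psme1 (chr14:55578494-55581527, plus strand) was the most abundant member per kilobase in ctrl-2, at 43.6 ± 5.60 CPM per kilobase (SD, n = 4). It had 77.9, 65.01, 79.5 and 47.7 CPM in cKO;S/+, against 49.5, 41.5, 53.1 and 49.4 in cKO;S/S and 42.7, 50.3, 37.8 and 39.8 in ctrl-2. Of cKO;S/+, replicates 8, 9 and 10 stood above all ctrl-2 libraries, and replicate 14 below ctrl-2 replicate 5 (log2 fold change 0.66, SE 0.15, edgeR adjusted p = 0.0236). Psme2 (chr14:55587440-55591101, minus strand) had 28.4, 22.1, 28.9 and 19.4 CPM in cKO;S/+, against 19.8, 20.5, 20.7 and 16.5 in cKO;S/S and 18.4, 21.3, 15.6 and 16.6 in ctrl-2. Again replicate 14 was within the ctrl-2 range and the other 3 above it, but the gene was not called (log2 fold change 0.46, SE 0.14, edgeR adjusted p = 0.0685). Psme1, Psme2 and Irf9 lie within chr14:55578494-55610030, and their log2 fold changes were 0.66, 0.46 and 0.91.

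Of the 6 remaining members Lgals3bp and Ifi35 rose in cKO;S/+ against ctrl-2. Lgals3bp (chr11:118392752-118401931, minus strand) encodes a secreted glycoprotein that binds galectin 3 and had the highest mean CPM of any member in cKO;S/+, though not the highest in replicate 14. It had 142, 123, 189.9 and 36.6 CPM in cKO;S/+, against 37.9, 42.4, 74.2 and 39.6 in cKO;S/S and 42.9, 47.3, 31.6 and 41.99 in ctrl-2. Of cKO;S/+, replicates 8, 9 and 10 formed a cluster above all other libraries, with replicate 17 of cKO;S/S next and replicate 14 at the level of ctrl-2 (log2 fold change 1.58, SE 0.38, edgeR adjusted p = 0.0284). Ifi35 (chr11:101448412-101458701, plus strand) encodes a cytosolic partner of NMI. It had 13.04, 8.64, 12.9 and 5.58 CPM in cKO;S/+, against 5.61, 4.54, 7.19 and 3.76 in cKO;S/S and 5.25, 5.20, 3.58 and 3.59 in ctrl-2. All 4 cKO;S/+ libraries exceeded all ctrl-2 libraries, replicate 14 by a small step (log2 fold change 1.19, SE 0.28, edgeR adjusted p = 0.0262). An antisense transcript covers 17.4% of the exon length of Ifi35.

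Xaf1, which encodes an antagonist of the apoptosis inhibitor XIAP, followed another pattern from the rest. It had 26.8, 9.21, 37.8 and 19.4 CPM in cKO;S/+, against 20.2, 15.6, 28.3 and 20.9 in cKO;S/S and 10.7, 14.3, 9.35 and 16.1 in ctrl-2. Replicate 9 of cKO;S/+ was the lowest of all 12 libraries and cKO;S/S lay nearly as high as cKO;S/+. Its log2 fold changes against ctrl-2 were 0.89 (SE 0.34) in cKO;S/+ and 0.75 (SE 0.34) in cKO;S/S, and 0.14 between the mutants, none of them called. Rtp4, an interferon-induced gene of the receptor transporter family, had 11.2, 12.02, 20.9 and 2.48 CPM in cKO;S/+ and 4.03 to 5.34 in ctrl-2, with replicate 14 below every other library and a log2 fold change of 1.25 that was not called. Tor3a, for a torsin ATPase, and Ifi27, for a mitochondrial membrane protein, had 0.60 and 0.37 and were not called. Both were called without replicate 14.

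Levels per kilobase of exon in ctrl-2 spread from 0.376 ± 0.156 CPM per kilobase for Zbp1 to 43.6 for Psme1 (SD, n = 4). Ifitm3 (31.1 ± 5.70), Ifi27 (20.4 ± 4.07), Lgals3bp (18.9 ± 3.05) and Psme2 (18.4 ± 2.59) followed Psme1, and the last 3 of these did not differ beyond their spread. At the other end Usp18 (0.880 ± 0.107) and Ifit1 (0.897 ± 0.114) likewise overlapped. The members with log2 fold changes of 1.88 or more in cKO;S/+ (Zbp1, Usp18, Ifit1, Isg15, Irf7 and Ifit3) were all at or below 3.69 CPM per kilobase in ctrl-2. So were members with small log2 fold changes, such as Isg20 (1.08 CPM per kilobase, log2 fold change 0.45) and Samd9l (2.36, 0.15).

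The genes upstream of these members were measured too. Of 11 listed interferons and receptor chains 5 were in the table (all of them receptor chains), and 3 rose in cKO;S/+ against ctrl-2, where 5.9% of all genes did: Ifnar2 (log2 fold change 0.59, SE 0.12), Ifngr2 (0.66, SE 0.15) and Il10rb (0.66, SE 0.16). Ifnar2 had 61.9, 52.5, 64.6 and 42.9 CPM in cKO;S/+, against 42.3, 38.6, 48.4 and 39.03 in cKO;S/S and 36.4, 41.7, 33.8 and 35.1 in ctrl-2. All 4 cKO;S/+ libraries were above all ctrl-2 libraries, whereas Ifnar1, its partner chain, had a log2 fold change of 0.0028 and 113 to 124 CPM in cKO;S/+ and 112 to 122 in ctrl-2. Ifna1, Ifna2, Ifna4, Ifnb1, Ifng and Ifnlr1 were listed but were not in the table, so they could not be compared. The genes of the JAK-STAT relay and its inhibitors were listed as well, and among those that rose was Socs3. Socs3, a feedback inhibitor of cytokine receptors, had 207, 131, 173 and 103 CPM in cKO;S/+, against 80.2, 69.6, 119 and 84.6 in cKO;S/S and 50.9, 103, 63.04 and 59.2 in ctrl-2. Its replicate 14 lay just above the highest ctrl-2 library (log2 fold change 1.16, SE 0.25, edgeR adjusted p = 0.0229). Tyk2 and Stat3 were not called with log2 fold changes of 0.46 and 0.28.

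Of 15 genes that lead to interferon production 6 rose in cKO;S/+ against ctrl-2, and of 56 further interferon-stimulated genes in the table (71 listed) 31 rose, with 0 lower in either list. Of all genes 5.9% rose and 1.38% fell. In the first list the smallest p belonged to Irf8 (log2 fold change 1.44, SE 0.28) and Irf5 (1.39, SE 0.29), transcription factors of the myeloid lineage, to Ticam1 (0.45, SE 0.10), the adaptor TRIF, and to Tlr7 (0.82, SE 0.18), an endosomal RNA receptor. Irf8 and Tlr7 are expressed in brain mainly by microglia. In the second list they were Helz2 (0.80, SE 0.13), a helicase gene, Gbp9 (0.85, SE 0.14) and Gbp5 (1.04, SE 0.17), for guanylate-binding proteins, and Parp10 (1.27, SE 0.23), for a mono-ADP-ribosyltransferase. The median log2 fold change was 0.45 in the first list and 0.99 in the second, beside 0.91 for the 40 members. With cKO;S/S set against ctrl-2, or cKO;S/+ against cKO;S/S, 0 genes of these 4 lists were called, as were 0% of all genes.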

How the data were processed

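RNA of ACSA-2-sorted cortical astrocytes was compared in 12 libraries, 1 per mouse and 4 per genotype. The authors deposited raw counts per gene and library, log2 CPM with a prior count, and gene lengths in bases. The build mm10 and the tools STAR 2.7.10a, featureCounts (Subread 2.0.3), FastQC 0.11.5 and edgeR 4.2.1 are listed in the submitters' processing notes. Annotation and strand setting: not given in the sources used here. A further 12 columns hold the authors' own fold changes, ratios, p-values and false discovery rates, and were not used. Depth was 16506627 to 22159404 counts per library.

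Raw counts were tested with edgeR 4.0.16 in R 4.3.3 (TMM, glmQLFit and glmQLFTest, all 12 libraries in one fit, two-sided, Benjamini-Hochberg adjustment over 15089 genes, threshold 0.05). The filter on low counts (filterByExpr, minimum count 10) removed 0 genes. CPM used TMM-scaled library sizes. The test was checked on simulated data.

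Members, gene lists and the rule for named genes were chosen with earlier results of these data known. Every member is named. Given by library were, in each role, the 2 members with the smallest p in cKO;S/+ against ctrl-2, with Isg15, Irf7, Stat2 and Ifitm3. Xaf1, the IFIT genes, Irf9, Parp9, Rtp4 and Gbp2 were added after their values were seen. Of the pathway lists up to 4 genes with the smallest p are given, with 1 gene not reported here, and Ifnar1, beside its partner chain, was added after its values were seen. Gene positions and promoter windows are those of RefSeq (GRCm38.p6), matched for 40 members by position and for 32 by window. Alternatives were other normalizations, filters and tests (DESeq2 1.42.0, limma-voom with limma 3.58.1), the 2 groups alone, each library left out, and covariates for Xist and microglia markers.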

Additional observations from a re-analysis of the deposited data

Results flagged for a closer look

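Dixon's criterion for 4 values was applied to the 120 sets of 4 libraries (40 genes in 3 genotypes). In 6 sets the highest or lowest library lay far from the other 3. Chance meets the criterion in about 1 in 20 sets, so 6 is about the number that chance alone would give. In cKO;S/+, replicate 10 stood above the others in 2 guanylate-binding protein genes, with 29.8 CPM of Gbp2 against 17.7 to 19.5 and 59.6 CPM of Gbp7 against 41.6 to 44.4. In cKO;S/S, replicate 17 had 74.2 CPM of Lgals3bp against 37.9 to 42.4 in the other libraries. In ctrl-2, replicate 5 had 27.5 CPM of Irf1 against 19.1 to 19.7, and replicate 6 was the lowest, with 12.4 CPM of Ifit2 against 17.3 to 17.7 and 1.34 CPM of Isg20 against 1.80 to 1.86.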

How the results depend on the processing

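The count of 22 members called higher in cKO;S/+ against ctrl-2 stayed within 1.5 times under RLE and upper-quartile scaling, a robust fit, no filter and a CPM filter (22 each), and under DESeq2 and the likelihood ratio test (31 each, with 8.66% and 8.08% of all genes). It was 11 with limma-voom (5.21% of all genes), 6 with the 2 groups alone (3.73%), and 0 with Xist or with general microglia markers as a covariate (0% each). Leaving out 1 library gave 0 to 33, with 0% to 10.6% of all genes. Without cKO;S/+ replicate 14, combined with a covariate in fits added after the data were seen, it was 29 with Xist (4.92%) and 0 with microglia markers (0.00663%). In each of these fits without replicate 14 the covariate nearly coincided with genotype. In cKO;S/+ against cKO;S/S the count of 0 became 20 with DESeq2 (2.62%) and 17 with the likelihood ratio test (2.01%), 0 to 31 with 1 library left out (0% to 5.73%), and, without replicate 14, 25 with Xist (2.55%) and 0 with microglia markers (0.0265%). In cKO;S/S against ctrl-2 it was 0 in every alternative run.

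Single log2 fold changes in cKO;S/+ against ctrl-2 turned below 0 with microglia markers as a covariate for 16 members: Dhx58 (-0.046), Zbp1 (-0.44), Ifit1 (-0.28), Ifit3 (-0.13), Ifitm3 (-0.20), Oasl2 (-0.75), Cmpk2 (-0.18), Isg20 (-0.046), Samd9l (-0.057), Isg15 (-0.23), Gbp2 (-0.054), Gbp7 (-0.018), Psme2 (-0.080), Ifi27 (-0.28), Rtp4 (-0.54) and Tor3a (-0.12). Without replicate 14 and with that covariate they were below 0 for Cmpk2 (-0.15), Samd9l (-0.12), Gbp7 (-0.086), Psme2 (-0.090) and Xaf1 (-0.098), and without replicate 10 for Cmpk2 (-0.0095) and Samd9l (-0.027), whose values with 1 library left out ran up to 0.16 and 0.25. Against cKO;S/S the covariate left 30 of 40 log2 fold changes above 0, and 38 without replicate 14; among the genes given by library it gave -0.070 for Irf1 and -0.030 for Psme2, and -0.039 for Psme2 without replicate 14. The cause was not tested. No paired analysis was possible because the replicate numbers are library numbers that no 2 groups share. The labels give 1 mouse per library, so the p-values measure the spread between mice, and Zbp1, Isg15, Isg20 and Usp18, with the lowest mean counts of the members, have the widest counting error.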

Other observations

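Further interferon-stimulated genes outside the 40 are given here after their values were seen. Slfn2, a schlafen family gene, had 26.9, 24.9, 30.5 and 5.96 CPM in cKO;S/+, against 8.04, 6.37, 11.6 and 5.05 in cKO;S/S and 5.87, 6.01, 3.47 and 3.495 in ctrl-2. Replicate 14 of cKO;S/+ lay within the ctrl-2 range, and replicate 17 was the highest of cKO;S/S. In contrast Socs1, an interferon-induced inhibitor of cytokine receptors, had 1.49 to 2.24 CPM in cKO;S/+, 1.68 to 2.29 in cKO;S/S and 1.65 to 2.30 in ctrl-2, and was not called.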
